A study of Mus musculus with 8 samples.

Results

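RNA of mouse embryonic stem cells (ESCs) depleted of YEATS2 was compared directly with RNA of ESCs depleted of ZZZ3, without reference to a control. The comparison held 6 of the 8 libraries of the series, namely the 3 labelled Yeats2 auxin and the 3 labelled Zzz3 auxin, and asks which RNA levels differ between loss of the one and of the other subunit of the ATAC coactivator complex. The named protein of each line is fused to the AID degron, so that auxin triggers its breakdown. The cells also express Tir1, a plant F-box protein on which the degron depends. Cells of both groups grew in serum with leukaemia inhibitory factor, a GSK3 inhibitor and a MEK inhibitor (2i), under G418 selection for Tir1, and received 500 µM auxin for 24 h. Auxin exposure is therefore common to both groups, whereas the line is not, so the subunit and any other difference between the lines cannot be told apart. Whether each line is 1 clone is not given in the sources used here. The labels give neither line nor treatment of the 2 control libraries, whose levels stand beside the values only as a reference. No label says that replicates were separate cultures, so P values measure the spread between these libraries, which may be technical.

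ATAC is a histone acetyltransferase complex of animal cells that acts as a coactivator of transcription. ZZZ3 carries a ZZ-type zinc finger and YEATS2 a YEATS domain, which both read modifications of histone H3, and both proteins belong to ATAC but not to SAGA, a coactivator that shares its acetyltransferase module. ESCs are the cultured counterpart of the early epiblast, and under 2i they hold a naive pluripotent state with low ERK signalling.

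Reads assigned to genes numbered 14315120 to 27884704 per library, lowest in Zzz3 auxin replicate 3, and CPM values below are read counts per library size after TMM scaling. ESC markers were abundant in every auxin library, with a sum over *Pou5f1*, *Nanog*, *Sox2*, *Klf4*, *Esrrb*, *Zfp42* and *Tfcp2l1* of 4298 to 4753 CPM in Zzz3 auxin and 4236 to 4931 CPM in Yeats2 auxin. Markers of fibroblasts or feeder cells summed to 1.77 to 2.88 and 1.65 to 1.98 CPM, and *Dcn* was at 0 in all 6 libraries. Libraries of Zzz3 auxin varied more. The biological coefficient of variation was 20.96% within Zzz3 auxin and 10.3% within Yeats2 auxin, and the SD of log2 CPM was larger in Zzz3 auxin for 72.7% of 13954 genes. Without Yeats2 auxin replicate 2 the value within Yeats2 auxin was 4.59%. Across 13954 genes, Pearson r of log2 CPM between libraries, which is a description, was 0.975 to 0.985 in Zzz3 auxin pairs. In Yeats2 auxin pairs it was 0.991 to 0.996. The lowest r was that of Zzz3 auxin replicates 1 and 3 with each other, each of which had a higher r with every Yeats2 auxin library, 0.981 to 0.983 for replicate 1 and 0.979 to 0.981 for replicate 3. Zzz3 auxin replicate 2 had an r of 0.993 to 0.995 with the Yeats2 auxin libraries and of 0.985 and 0.981 with replicates 1 and 3.

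The targeted genes differed in opposite directions, each lower in the line where its own protein was tagged than in the other line. *Zzz3* (ENSMUSG00000039068), which lies on chromosome 3, 152395473 to 152462826, plus strand of GRCm38, had 77.7, 97.3 and 113 CPM in Zzz3 auxin, 189, 186 and 191 CPM in Yeats2 auxin and 186 and 182 CPM in the controls. Each Zzz3 auxin library was below each Yeats2 auxin library, and the latter were at or slightly above the controls. The log2 fold change (FC) of Yeats2 auxin over Zzz3 auxin was 0.97 (SE 0.14, 95% interval 0.67 to 1.28, edgeR P 3.23e-05, adjusted P 0.540). *Yeats2* (ENSMUSG00000041215, chromosome 16, 20141063 to 20232573, plus strand) had 134, 119.9 and 125 CPM in Zzz3 auxin, 77.5, 105 and 43.7 CPM in Yeats2 auxin and 90.5 and 96.0 CPM in the controls. Each Yeats2 auxin library was below each Zzz3 auxin library, but the former spread widely, with replicate 2 above both controls and replicates 1 and 3 below. All Zzz3 auxin libraries were above both controls. The log2 FC was -0.74 (SE 0.25, 95% interval -1.30 to -0.18, edgeR P 0.0151, adjusted P 0.794), and -1.05 without Yeats2 auxin replicate 2 and -0.47 without replicate 3. By the exact two-sided permutation test of log2 CPM both genes had P = 0.1, the smallest that 3 against 3 libraries allow. The degron acts on the protein, so these mRNA values do not measure depletion. *Ak5* overlaps *Zzz3*, and *Gm10241* overlaps *Yeats2*, each from the other strand. Whether counting used strand is not given in the sources used here.

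**Figure D1:**
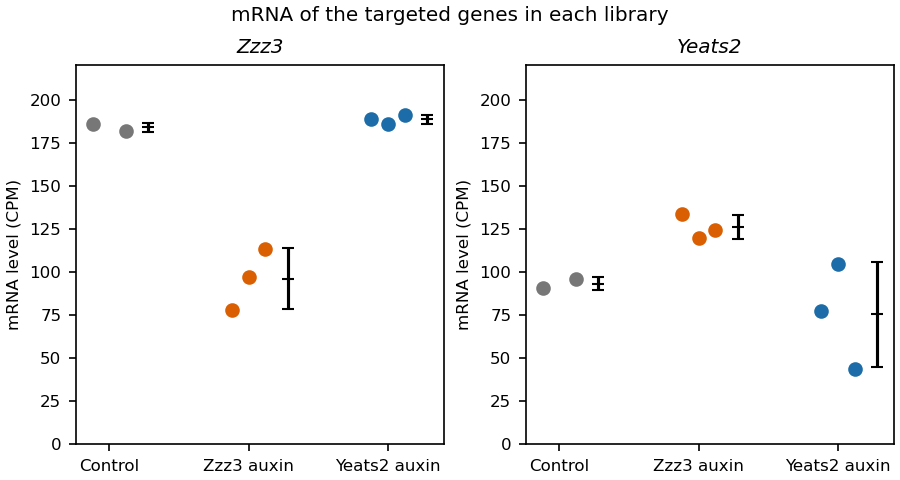
mRNA level of Zzz3 and Yeats2 (CPM, linear axis from 0) in each library, with points for libraries and a black bar for mean ± SD (n = 2 controls, 3 Zzz3 auxin, 3 Yeats2 auxin). Zzz3 auxin libraries hold 77.7 to 113 CPM of Zzz3 while Yeats2 auxin libraries hold 186 to 191 CPM, and Yeats2 lies between 43.7 and 105 CPM in Yeats2 auxin, below each Zzz3 auxin library.

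No gene passed the adjusted threshold between the depletions, so "higher" and "lower" below give the direction of measured values and not a call. Of 16706 genes tested, edgeR's quasi-likelihood test called 0 at an adjusted P under 0.05, which is 0% of the genes, and the smallest adjusted P was 0.540, that of *Zzz3*. An unadjusted P under 0.05 was found for 971 genes, or 5.81%, where uniform P values would give 835.3. Of these, 381 were higher in Yeats2 auxin (2.28% of the genes tested) and 590 were lower (3.53%). DESeq2, the tool of the study, called 3 genes, which are 0.018% of those tested: *Zzz3* (adjusted P 6.46e-06), *Lefty2* (0.025) and *Lrrc15* (0.0355). The median log2 FC over all genes was -0.012, and 48% were above 0.

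How large a difference could have been missed is given by the intervals. The 95% interval of the log2 FC lay inside -1 to 1 for 12888 genes, or 77.1%, and for 93.6% of the 12317 genes that averaged 2 CPM or more. Within a log2 FC of -0.58 to 0.58, about a 1.5-fold difference, lay the intervals of 65.1% of the latter. Fitted differences over 2-fold were few and mostly small in level: 65 genes, or 0.389%, had a log2 FC above 1 and 166, or 0.994%, below -1. Among 2579 genes averaging 100 CPM or more only 1 exceeded 2-fold in either direction, against 174 of the 4389 genes under 2 CPM. The plot of all genes shows this narrowing with level.

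**Figure D2:**
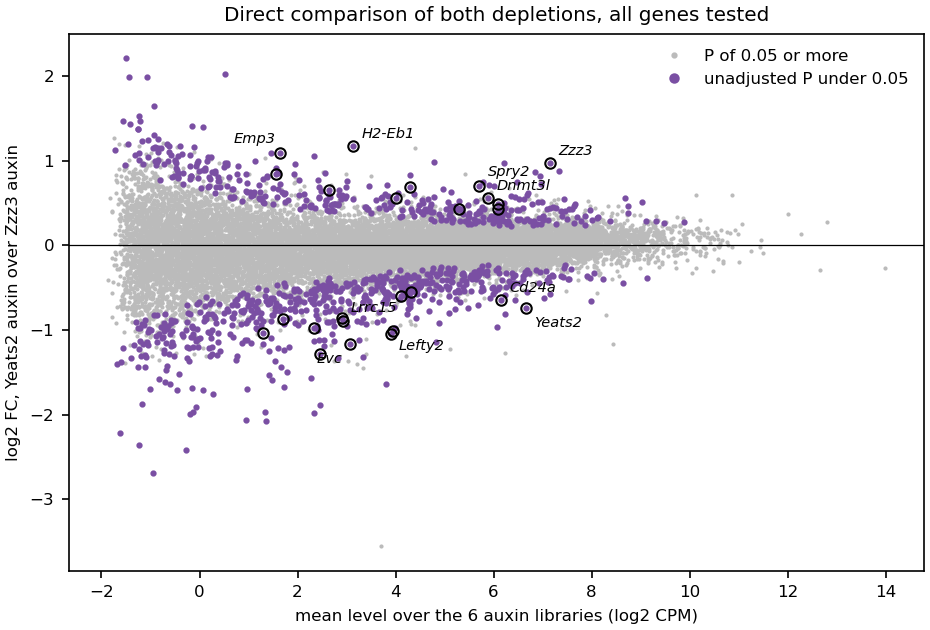
Log2 FC of Yeats2 auxin over Zzz3 auxin (vertical axis) against mean level over the 6 auxin libraries (log2 CPM, horizontal axis) for 16706 genes, with purple for an unadjusted P under 0.05 and black rings for the targeted genes and genes chosen by P. Zzz3 at 0.97 and Yeats2 at -0.74 stand out among abundant genes, and differences over 2-fold are found mainly at low levels.

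Genes were next examined one by one, in order of P, among those with at least 2 CPM whose libraries did not overlap between the groups. Such separation was seen for 1852 genes or 11.1%, with 868 higher in Yeats2 auxin (5.2%) and 984 lower (5.89%). If all orders of 3 against 3 libraries were equally likely, separation in either direction would have a probability of 0.1. The 12 lower and 12 higher genes with the smallest P were taken; none passed adjustment in edgeR after the filter on low counts, where all 24 had an adjusted P of 0.794. Without that filter 13 of the 24 passed, with adjusted P of 8.30e-05 to 0.190 over the 24. In each of the 6 fits that left out 1 library all 24 kept an unadjusted P under 0.05. Since the genes were chosen by P in the same libraries, these P values describe them and test nothing anew.

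The smallest P of the 12 lower genes was that of *Lrrc15* (chromosome 16, 30269302 to 30283256, minus strand), a membrane protein with leucine-rich repeats. It had 9.15, 9.20 and 11.2 CPM in Zzz3 auxin, 5.89, 4.96 and 5.03 CPM in Yeats2 auxin and 12.8 and 12.3 CPM in the controls (log2 FC -0.89, SE 0.17, P 0.000429). Zzz3 auxin lay under the controls and Yeats2 auxin further below. *Lefty2* (chromosome 1, 180893108 to 180899103, plus strand), a secreted inhibitor of Nodal signalling, had 25.5, 15.0 and 19.9 CPM in Zzz3 auxin, 8.22, 11.3 and 9.82 CPM in Yeats2 auxin and 21.1 and 16.9 CPM in the controls (log2 FC -1.04, SE 0.21, P 0.000580). Zzz3 auxin spanned the controls, and each Yeats2 auxin library was below both. *Cd24a*, a lipid-anchored surface protein, had 104, 71.8 and 84.1 CPM in Zzz3 auxin, 55.4, 52.0 and 58.2 CPM in Yeats2 auxin and 81.7 and 74.2 CPM in the controls (log2 FC -0.65, SE 0.14, P 0.000987). For these 3 genes Yeats2 auxin was the group that differed from the controls by more.

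In other lower genes the mean of Zzz3 auxin stood above both controls. *Txlnb* had 12.5, 5.63 and 5.21 CPM in Zzz3 auxin, 3.10, 2.75 and 3.84 CPM in Yeats2 auxin and 2.16 and 1.86 CPM in the controls (log2 FC -1.28, SE 0.33, P 0.00328, and -0.75 without Zzz3 auxin replicate 1). *Dtx1*, an E3 ligase of the Notch pathway, had 27.8, 11.8 and 22.1 CPM in Zzz3 auxin, 10.1, 10.6 and 9.74 CPM in Yeats2 auxin and 5.80 and 10.5 CPM in the controls (log2 FC -1.02, SE 0.26, P 0.00332). *Rac2*, a small GTPase of blood cells, had 7.77, 4.56 and 7.65 CPM in Zzz3 auxin, 3.33, 3.23 and 3.56 CPM in Yeats2 auxin and 3.64 and 5.04 CPM in the controls (log2 FC -0.97, SE 0.23, P 0.00201). In all 3 genes the Zzz3 auxin libraries spread more than the Yeats2 auxin libraries. *Prkce*, which encodes protein kinase C epsilon, had 4.08, 2.39 and 3.39 CPM in Zzz3 auxin, 1.51, 1.69 and 1.58 CPM in Yeats2 auxin and 1.47 and 2.09 CPM in the controls (log2 FC -1.04, SE 0.25, P 0.00220). *Cap2*, an actin regulator, had 12.8, 7.36 and 9.01 CPM in Zzz3 auxin, 5.54, 5.03 and 5.54 CPM in Yeats2 auxin and 7.32 and 7.18 CPM in the controls (log2 FC -0.86, SE 0.22, P 0.00289). *Plce1*, a phospholipase C, had 20.9, 22.7 and 26.9 CPM in Zzz3 auxin, 15.5, 17.2 and 15.4 CPM in Yeats2 auxin and 19.7 and 19.7 CPM in the controls (log2 FC -0.55, SE 0.14, P 0.00316). In the last 2 every Yeats2 auxin library was below both controls and every Zzz3 auxin library above both. The remaining lower genes were *Igfbp7*, which binds insulin-like growth factors (log2 FC -0.87), *Evc*, a ciliary protein of Hedgehog signalling (-1.16), and *Vgll3*, a TEAD cofactor (-0.59).

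Among genes higher in Yeats2 auxin, *H2-Eb1* (chromosome 17, 34305867 to 34316674, plus strand), a chain of MHC class II, had the largest fitted difference of the 12, with 4.11, 8.24 and 3.59 CPM in Zzz3 auxin, 15.1, 8.92 and 12.6 CPM in Yeats2 auxin and 4.77 and 2.82 CPM in the controls (log2 FC 1.18, SE 0.31, P 0.00388). Yeats2 auxin was above both controls, and so was Zzz3 auxin replicate 2. *Dnmt3l* (chromosome 10, 78041947 to 78063622, plus strand), the catalytically inactive partner of the de novo DNA methyltransferases, had 40.8, 59.6 and 43.7 CPM in Zzz3 auxin, 66.4, 72.2 and 73.9 CPM in Yeats2 auxin and 58.6 and 62.3 CPM in the controls (log2 FC 0.56, SE 0.15, P 0.00381). *Spry2* (chromosome 14, 105891947 to 105896819, minus strand), a feedback inhibitor of receptor tyrosine kinase signalling, had 39.8, 51.2 and 28.04 CPM in Zzz3 auxin, 73.4, 60.7 and 60.2 CPM in Yeats2 auxin and 72.7 and 59.1 CPM in the controls (log2 FC 0.70, SE 0.20, P 0.00498). Yeats2 auxin was at the level of the controls and each Zzz3 auxin library below both.

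The related membrane protein genes *Emp1* and *Emp3* stood differently to the controls. *Emp1* had 13.3, 18.98 and 12.5 CPM in Zzz3 auxin, 21.9, 26.8 and 23.7 CPM in Yeats2 auxin and 32.9 and 27.2 CPM in the controls (log2 FC 0.69, SE 0.18, P 0.00330), with all auxin libraries below both controls. *Emp3* had 0.9999, 2.39 and 2.64 CPM in Zzz3 auxin, 4.61, 4.15 and 3.88 CPM in Yeats2 auxin and 2.51 and 3.09 CPM in the controls (log2 FC 1.09, SE 0.32, P 0.00646), with all Yeats2 auxin libraries above both. *Dmc1*, a recombinase of meiosis, had 1.69, 2.35 and 2.30 CPM in Zzz3 auxin, 4.34, 3.82 and 3.25 CPM in Yeats2 auxin and 2.80 and 2.63 CPM in the controls (log2 FC 0.85, SE 0.23, P 0.00391). *Slc1a3*, a glutamate transporter, had 3.96, 5.67 and 4.94 CPM in Zzz3 auxin, 8.06, 7.30 and 7.60 CPM in Yeats2 auxin and 6.64 and 6.72 CPM in the controls (log2 FC 0.66, SE 0.19, P 0.00561). In both *Dmc1* and *Slc1a3* every Yeats2 auxin library was above and every Zzz3 auxin library below the controls. Smaller differences were those of *Slc30a2*, a zinc transporter (log2 FC 0.43), *Mrpl12*, a mitochondrial ribosomal protein (0.49), *Wdr31* (0.56) and *Retsat*, a retinol saturase (0.43).

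**Figure D3:**
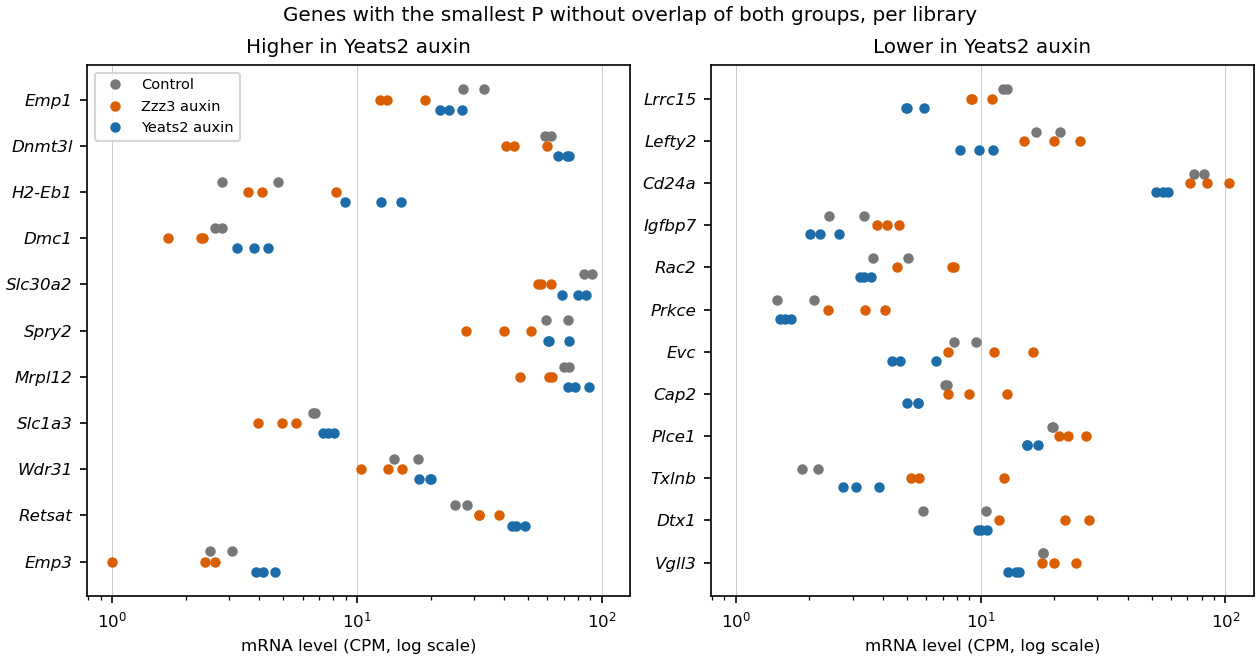
mRNA level (CPM, log axis) in each of the 8 libraries for genes among the 12 higher (left) and the 12 lower (right) in Yeats2 auxin with the smallest P; grey points are controls, orange Zzz3 auxin and blue Yeats2 auxin. For every gene blue and orange points do not overlap, which the choice of genes required, and the position of the grey points differs from gene to gene.

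Gene lists were then compared, and their counts at an unadjusted P under 0.05 stand against 2.28% higher and 3.53% lower among all genes. Many of these members depended on single libraries. Of 101 genes at that P, chosen by the rules or after values were seen, 61 lost it when at least 1 library was left out, and 40 kept it throughout. Where leaving out a library moved the log2 FC of a gene at that P over 1.5-fold, that value follows its P. For genes given at a larger P such moves are not all stated.

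Transcripts of the complexes themselves came first. A subunit is called specific here if only 1 of ATAC and SAGA holds it, even where complexes other than these hold it too. Of 7 ATAC-specific subunit genes, which beside the targets are *Kat14*, *Mbip*, *Wdr5*, *Dr1* and *Tada2a*, 5 were higher and 2 lower in Yeats2 auxin, and only the targeted genes were at P under 0.05. The intervals of the other 5 lay inside -1 to 1. The 4 genes of the acetyltransferase module shared with SAGA, *Kat2a*, *Kat2b*, *Tada3* and *Sgf29*, had a median log2 FC of -0.0096 and none was at P under 0.05, the extremes being *Tada3* at 0.12 and *Sgf29* at -0.24. Of 14 SAGA-specific genes only *Atxn7*, a subunit of the deubiquitinase module, was at P under 0.05, with 15.2, 12.7 and 11.4 CPM in Zzz3 auxin, 10.8, 9.51 and 9.98 CPM in Yeats2 auxin and 14.6 and 13.3 CPM in the controls (log2 FC -0.38, SE 0.16, P 0.0393). All 14 intervals lay inside -1 to 1, and *Atxn7* kept this P without Zzz3 auxin replicate 3 alone of the 6 libraries.

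Proliferation genes differed little, while intervals of some stress genes were wider. The 18 mitosis genes had a median log2 FC of -0.029 and all 18 intervals inside -1 to 1, with none at P under 0.05. The 23 DNA replication genes had a median of 0.011 and again all intervals inside -1 to 1. Only *Gins2*, of the GINS part of the replicative helicase, was at P under 0.05, with 40.7, 44.7 and 45.2 CPM in Zzz3 auxin, 53.8, 62.6 and 52.1 CPM in Yeats2 auxin and 43.6 and 49.7 CPM in the controls (log2 FC 0.37, SE 0.12, P 0.0104). None of 21 p53 target genes was at P under 0.05 (median -0.024), nor any of 15 ATF4 target genes tested (median -0.018) or of 10 heat-shock and ER chaperone genes (median 0.12, -0.0064 without Zzz3 auxin replicate 3). Intervals lay inside -1 to 1 for 19 of the p53 targets, 13 of the ATF4 targets and 9 of the chaperone genes. Those of the other members reached beyond a 2-fold difference. Of the p53 targets, the extremes were *Bbc3* at -0.38 (P 0.146) and *Pmaip1* at 0.54 (P 0.155).

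Of 15 naive pluripotency genes, 8 were higher and 7 lower in Yeats2 auxin, none was at P under 0.05, the median was 0.0048, and 14 intervals lay inside -1 to 1. Outside lay that of *Dppa3*, a maternal factor expressed in a subset of ESCs, with 17.5, 4.45 and 2.84 CPM in Zzz3 auxin, 3.84, 3.96 and 2.57 CPM in Yeats2 auxin and 2.46 and 3.54 CPM in the controls (log2 FC -1.27, P 0.0624). Zzz3 auxin replicate 1 alone was high, and without it the log2 FC was -0.10.

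Genes of later developmental states were lower in Yeats2 auxin more often than higher, most of them at low levels. Of 9 primed-state genes tested, 3 were lower and 1 higher at P under 0.05, against 3.53% and 2.28% of all genes, and 1 to 4 of the 4 kept this P when 1 library was left out. The median was -0.25, or -0.13 without Zzz3 auxin replicate 1 and -0.37 without replicate 2. *Otx2*, a transcription factor of the formative epiblast, had 6.69, 8.31 and 10.8 CPM in Zzz3 auxin, 5.47, 6.68 and 5.42 CPM in Yeats2 auxin and 7.82 and 10.4 CPM in the controls (log2 FC -0.54, SE 0.21, P 0.0266, and -0.36 without Zzz3 auxin replicate 3). *Zic2* had 16.3, 6.58 and 10.5 CPM in Zzz3 auxin, 7.95, 4.88 and 6.53 CPM in Yeats2 auxin and 8.31 and 7.31 CPM in the controls (log2 FC -0.79, SE 0.31, P 0.0302, and -0.38 without Zzz3 auxin replicate 1). Both lost P under 0.05 in those fits (P 0.0936 and 0.186). *Sall2* was at -0.51 (P 0.0248). The higher gene was *Dnmt3b*, a de novo DNA methyltransferase, with 147, 171 and 163 CPM in Zzz3 auxin, 207, 200.3 and 194 CPM in Yeats2 auxin and 127 and 146 CPM in the controls (log2 FC 0.32, SE 0.10, P 0.0103), where both auxin groups were above the controls.

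All 5 neuroectoderm genes tested and all 4 mesendoderm genes tested were lower in Yeats2 auxin, with medians of -0.23 and -0.49. *Pax6*, the neural and eye regulator, had 2.81, 0.515 and 1.02 CPM in Zzz3 auxin, 0.465, 0.294 and 0.356 CPM in Yeats2 auxin and 0.786 and 0.318 CPM in the controls (log2 FC -1.97, SE 0.60, P 0.00829, and -0.95 without Zzz3 auxin replicate 1). *Gsc*, a gene of the organizer, had 0.846, 1.104 and 2.10 CPM in Zzz3 auxin, 0.543, 0.734 and 0.515 CPM in Yeats2 auxin and 0.0983 and 0.772 CPM in the controls (log2 FC -1.11, SE 0.40, P 0.0191, and -0.70 without Zzz3 auxin replicate 3). Each was the only member of its list at P under 0.05, which *Pax6* lost without Zzz3 auxin replicate 1 (P 0.0772) and *Gsc* without replicate 3 (P 0.0825). Neuroectoderm genes were high in Zzz3 auxin replicates 1 and 3, with median log2 deviations from the 6-library mean of 0.48 and 0.51. Their median was -0.24 without the former and -0.36 without the latter. Mesendoderm genes were high in Zzz3 auxin replicate 1 (0.43), and without it their median was -0.12. Of 6 primitive endoderm genes tested, 4 were lower and none was at P under 0.05, with a median of -0.38 that was -0.11 without Zzz3 auxin replicate 1. Of the trophoblast genes, 4 of 6 were higher, and only *Gata3* was at P under 0.05, with 0.769, 0.846 and 0.745 CPM in Zzz3 auxin, 0.388, 0.367 and 0.594 CPM in Yeats2 auxin and 1.18 and 0.454 CPM in the controls (log2 FC -0.81, P 0.0429).

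Genes of the 2-cell-like state, a rare state of ESCs resembling the embryo at zygotic genome activation, gave the largest median of any list. All 5 that were tested of 10 were lower in Yeats2 auxin at P under 0.05, against 3.53% of all genes, and 3 of them without overlap, against 5.89%, with a median log2 FC of -1.33. *Zscan4c* (chromosome 7, 11005745 to 11010547, plus strand), a zinc finger gene linked to telomere maintenance, had 3.04, 0.662 and 0.474 CPM in Zzz3 auxin, 0.194, 0.404 and 0.198 CPM in Yeats2 auxin and 0.147 and 0.272 CPM in the controls (log2 FC -2.42, SE 0.72, P 0.00762, and -1.12 without Zzz3 auxin replicate 1). *Zscan4d* had 8.58, 2.13 and 1.83 CPM in Zzz3 auxin, 1.43, 1.91 and 0.871 CPM in Yeats2 auxin and 1.38 and 0.817 CPM in the controls (log2 FC -1.59, SE 0.57, P 0.0201, and -0.50 without Zzz3 auxin replicate 1). Zzz3 auxin replicate 1 was far above the other libraries of its group, and replicates 2 and 3 were above most Yeats2 auxin libraries. *Zscan4f* (log2 FC -1.33, P 0.0134, and -0.68 without Zzz3 auxin replicate 1), *Zfp352* (log2 FC -1.05, P 0.0181) and the copy *Zscan4a*, annotated as a pseudogene (log2 FC -1.15, P 0.0325, and -0.49 without Zzz3 auxin replicate 1), were lower as well. Leaving out Zzz3 auxin replicate 1 gave a median of -0.68, and 0 of the 5 genes were at P under 0.05, with P of 0.0591 for *Zscan4c*, 0.169 for *Zscan4d*, 0.0995 for *Zscan4f*, 0.0862 for *Zfp352* and 0.247 for *Zscan4a*. All 5 remained lower in Yeats2 auxin. A smaller fraction of cells in this state and less RNA per cell cannot be told apart in bulk RNA.

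The *Zscan4* genes are near-identical copies on chromosome 7, so their reads can be shared or lost in counting of unique reads, and their values are not independent. The 250 bases before the start of *Zscan4c* (GRCm38.p6, chr7:11005495-11005744, plus strand) and of *Zscan4d* (chr7:11166149-11166398, minus strand), from RefSeq, are shown to let this likeness be seen. They are 97.5% identical over 239 aligned bases, and capitals mark the motif TATAAA, searched on the strand of the gene, which 8.12% of 27025 promoters hold in this window.
Zscan4c: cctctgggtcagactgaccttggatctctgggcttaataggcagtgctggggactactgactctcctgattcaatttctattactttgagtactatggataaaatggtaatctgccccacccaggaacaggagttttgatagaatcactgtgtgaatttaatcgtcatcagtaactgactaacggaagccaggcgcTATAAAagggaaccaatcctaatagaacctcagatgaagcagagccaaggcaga
Zscan4d: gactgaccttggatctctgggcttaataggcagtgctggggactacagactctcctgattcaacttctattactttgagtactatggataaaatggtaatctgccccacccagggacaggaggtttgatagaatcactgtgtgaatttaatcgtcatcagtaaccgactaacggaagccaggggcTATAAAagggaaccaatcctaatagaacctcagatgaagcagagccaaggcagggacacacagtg
A match is a description of these letters only. *Zscan4f* holds the motif as well, with 99.6% identity to *Zscan4c*, while *Zfp352*, on chromosome 4, does not hold these letters in its window. *Zfp352* had 1.19, 0.846 and 0.609 CPM in Zzz3 auxin, 0.349, 0.514 and 0.436 CPM in Yeats2 auxin and 0.246 and 0.272 CPM in the controls, without overlap of the auxin groups.

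The lists of Nodal, FGF and ERK, Hedgehog, DNA methylation and microRNA genes were chosen after values were seen, so their counts are descriptions. In Nodal signalling, where Nodal binds activin receptors and SMAD2 or SMAD3 act with FOXH1 on targets that include the *Lefty* genes, 4 of 16 genes tested were lower in Yeats2 auxin at P under 0.05 and none higher, against 3.53% and 2.28% of all genes. Of the 4, 3 to 4 kept this P when 1 library was left out. *Lefty1* had 7.77, 1.77 and 2.57 CPM in Zzz3 auxin, 0.969, 1.62 and 0.515 CPM in Yeats2 auxin and 2.51 and 2.27 CPM in the controls (log2 FC -1.97, SE 0.58, P 0.00685, and -1.03 without Zzz3 auxin replicate 1), and *Lefty2* is given above. *Foxh1* had 41.7, 29.3 and 52.6 CPM in Zzz3 auxin, 27.6, 26.9 and 26.8 CPM in Yeats2 auxin and 22.2 and 37.8 CPM in the controls (log2 FC -0.60, SE 0.19, P 0.00979, and -0.39 without Zzz3 auxin replicate 3). The transcriptional repressor *Skil* had 64.7, 48.6 and 47.7 CPM in Zzz3 auxin, 39.3, 42.0 and 45.2 CPM in Yeats2 auxin and 63.0 and 55.6 CPM in the controls (log2 FC -0.35, SE 0.14, P 0.0326, and -0.19 without Zzz3 auxin replicate 1). The ligand *Nodal* was at 118, 122 and 134 CPM in Zzz3 auxin and 123, 142 and 116 CPM in Yeats2 auxin (log2 FC 0.028, 95% interval -0.22 to 0.28), and its coreceptor *Tdgf1* at a log2 FC of 0.014 (95% interval -0.22 to 0.25). *Lefty1* was highest in Zzz3 auxin replicate 1.

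Some feedback inhibitors downstream of FGF receptors were higher in Yeats2 auxin. Of 18 FGF and ERK pathway genes tested, 3 were higher at P under 0.05 and none lower, against 2.28% and 3.53% of all genes, and 1 to 3 of the 3 kept this P when 1 library was left out. The median was 0.10, or 0.054 without Zzz3 auxin replicate 1. Beside *Spry2*, these were *Spry4*, with 1.85, 2.06 and 2.71 CPM in Zzz3 auxin, 3.95, 2.35 and 4.16 CPM in Yeats2 auxin and 7.67 and 3.68 CPM in the controls (log2 FC 0.68, SE 0.27, P 0.0333), and *Spred1*. *Spred1* had 96.8, 120.04 and 106 CPM in Zzz3 auxin, 129, 119 and 137 CPM in Yeats2 auxin and 148 and 123 CPM in the controls (log2 FC 0.26, SE 0.11, P 0.0498). The auxin groups overlapped in *Spry4* and *Spred1*. Related inhibitors were not higher: *Spry1* was at -0.13 (P 0.550), *Spred2* at -0.086 (P 0.706) and the phosphatase *Dusp4* at -0.70 (P 0.0589). *Spred2* turned direction without Zzz3 auxin replicate 3 and without Yeats2 auxin replicate 2. The ligand *Fgf4* was at 0.023 (95% interval -0.20 to 0.25), the receptor *Fgfr1* at 0.028 and the phosphatase *Dusp6* at 0.14. The 9 ERK-responsive genes tested, an overlapping list, had a median of 0.056, which was -0.033 without Zzz3 auxin replicate 1 and 0.24 without replicate 3. For *Spry2*, *Spry4* and *Spred1*, Zzz3 auxin means were below both controls, and for *Spry4* the Yeats2 auxin mean was below both as well.

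In the Hedgehog pathway 13 of 14 genes tested were lower in Yeats2 auxin, 4 of them at P under 0.05 against 3.53% of all genes, and 2 to 4 of the 4 kept this P when 1 library was left out. The median was -0.41, or -0.27 with the GC and length correction. *Gli1*, a transcriptional effector and target of the pathway, had 14.8, 5.30 and 7.25 CPM in Zzz3 auxin, 3.84, 4.48 and 4.28 CPM in Yeats2 auxin and 3.83 and 5.50 CPM in the controls (log2 FC -1.13, SE 0.34, P 0.00762, and -0.56 without Zzz3 auxin replicate 1). The ciliary gene *Evc* had 16.3, 7.39 and 11.3 CPM in Zzz3 auxin, 4.34, 6.61 and 4.67 CPM in Yeats2 auxin and 7.77 and 9.63 CPM in the controls (log2 FC -1.16, SE 0.29, P 0.00241). Its partner *Evc2* was lower as well (log2 FC -0.52, P 0.0240, and -0.31 without Zzz3 auxin replicate 1), and *Gli3*, a further GLI factor, was at -0.59 (P 0.0169). The receptor *Ptch1* was at -0.28 (P 0.0952), and *Sufu*, an inhibitor that binds GLI proteins, at 0.015 (95% interval -0.31 to 0.34). Zzz3 auxin replicates 1 and 3 were high over the list, with median deviations of 0.27 and 0.24, and replicate 2 at -0.070 was near the Yeats2 auxin libraries at -0.21 to -0.12.

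Of the 9 DNA methylation genes, *Dnmt3l* and *Dnmt3b* were higher in Yeats2 auxin at P under 0.05 and none was lower, against 2.28% and 3.53% of all genes. *Dnmt3l* kept this P without each library, and *Dnmt3b* lost it without Yeats2 auxin replicate 1 (P 0.0524). The maintenance factors *Dnmt1* and *Uhrf1* were at -0.17 and 0.13, and the dioxygenases *Tet1* and *Tet2* at -0.12 and -0.019, with none at P under 0.05. Germline genes, which DNA methylation keeps silent in most cells, had 3 of 14 higher and 1 lower at P under 0.05, against 2.28% and 3.53% of all genes. Of the 4, 0 to 3 kept this P when 1 library was left out, and the median of -0.071 was 0.14 without Zzz3 auxin replicate 1. *Sycp2*, of the synaptonemal complex, had 0.654, 0.589 and 0.677 CPM in Zzz3 auxin, 0.814, 1.17 and 1.39 CPM in Yeats2 auxin and 0.344 and 0.590 CPM in the controls (log2 FC 0.82, P 0.0294). *Tex101* and *Brdt* were at 0.67 (P 0.0390) and 0.77 (P 0.0472, and 0.37 without Yeats2 auxin replicate 3). *Dazl*, the most abundant of the 4, had 35.0, 33.2 and 31.7 CPM in Zzz3 auxin, 27.4, 26.9 and 29.5 CPM in Yeats2 auxin and 28.3 and 21.8 CPM in the controls (log2 FC -0.26, P 0.0492).

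Imprinted genes, expressed from 1 parental allele, had no common direction. Of 21 tested, 12 were higher and 9 lower in Yeats2 auxin, with 2 higher and 1 lower at P under 0.05 against 2.28% and 3.53% of all genes. Of the 3, 0 to 3 kept this P when 1 library was left out. The median was 0.094, and it was 0.47 without Zzz3 auxin replicate 1, -0.15 without replicate 2, -0.076 without replicate 3 and -0.048 on protein-coding genes alone. *Plagl1*, a zinc finger regulator of growth, had 72.6, 32.8 and 44.6 CPM in Zzz3 auxin, 136, 70.3 and 88.1 CPM in Yeats2 auxin and 71.7 and 65.0 CPM in the controls (log2 FC 0.97, SE 0.30, P 0.0103), so replicate 1 was highest in both groups and the groups overlapped by 1 library. *Sgce*, encoding epsilon-sarcoglycan, had 1.38, 1.77 and 2.30 CPM in Zzz3 auxin, 3.95, 2.72 and 2.57 CPM in Yeats2 auxin and 4.62 and 4.36 CPM in the controls (log2 FC 0.79, P 0.0166). *Phlda2*, which restrains placental growth, had 0.4999, 2.02 and 1.63 CPM in Zzz3 auxin, 0.116, 0.477 and 0.673 CPM in Yeats2 auxin and 0.737 and 1.91 CPM in the controls (log2 FC -1.69, P 0.0196).

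MicroRNA loci were higher in Yeats2 auxin more often than lower. Of 86 annotated miRNA genes tested, 64 were higher, 9 of them at P under 0.05 against 2.28% of all genes, and none was lower at that P. Of the 9, 2 to 7 kept this P when 1 library was left out. Libraries did not overlap for 13 that were higher, against 5.2% of all genes, and for none that was lower. The median log2 FC was 0.32, or 0.14 after the correction for GC content and length. Per library, the median deviation was -0.14 to -0.091 in Zzz3 auxin and 0.085 to 0.29 in Yeats2 auxin, without overlap. These libraries hold fragments of long RNA, so the counts come from primary transcripts, hairpins or host introns and do not measure mature miRNAs. Of the 9 loci, 5 lie in the imprinted *Dlk1*-*Dio3* region of chromosome 12. *Mir453* had 0.846, 0.883 and 1.29 CPM in Zzz3 auxin, 2.40, 2.02 and 1.39 CPM in Yeats2 auxin and 1.92 and 2.13 CPM in the controls (log2 FC 0.98, P 0.00959). *Mir494* had 0.461, 0.368 and 0.406 CPM in Zzz3 auxin, 0.930, 1.14 and 0.594 CPM in Yeats2 auxin and 0.688 and 1.14 CPM in the controls (log2 FC 1.101, P 0.0151). For *Mir412* the values were 0.4999, 0.478 and 0.271 CPM in Zzz3 auxin, 0.659, 1.21 and 0.871 CPM in Yeats2 auxin and 0.590 and 0.817 CPM in the controls (log2 FC 1.07, P 0.0195). In all 3 loci each Yeats2 auxin library was above each Zzz3 auxin library, all below 3 CPM. *Mir679* and *Mir323* of the same region were at 0.85 and 1.26. Elsewhere, *Mir296*, inside the *Gnas* region of chromosome 2, had 1.88, 4.05 and 3.05 CPM in Zzz3 auxin, 5.62, 5.58 and 4.16 CPM in Yeats2 auxin and 5.21 and 6.99 CPM in the controls (log2 FC 0.77, P 0.0201, and 0.51 without Zzz3 auxin replicate 1). *Mir196a-1*, of a *Hox* cluster, had 2.42, 3.35 and 2.71 CPM in Zzz3 auxin, 4.61, 3.85 and 3.88 CPM in Yeats2 auxin and 1.97 and 2.13 CPM in the controls (log2 FC 0.54, P 0.0283). *Mir20b*, of the X-linked Mir106a cluster, had 0.654, 0.699 and 0.542 CPM in Zzz3 auxin, 0.853, 1.101 and 1.46 CPM in Yeats2 auxin and 0.885 and 1.14 CPM in the controls (log2 FC 0.82, P 0.0297). In *Mir6236* 1 library, Yeats2 auxin replicate 2, held 5.36 CPM (log2 FC 2.03, P 0.0368, and 0.41 without Yeats2 auxin replicate 2) against at most 0.930 CPM in the others.

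A mature product of 8 of the 9 loci, from RefSeq on GRCm38.p6, is given to show that they share no seed (bases 2 to 8, in capitals).
mmu-miR-453: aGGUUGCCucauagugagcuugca
mmu-miR-494-3p: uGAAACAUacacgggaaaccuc
mmu-miR-412-3p: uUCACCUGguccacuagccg
mmu-miR-679-5p: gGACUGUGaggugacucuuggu
mmu-miR-323-3p: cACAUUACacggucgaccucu
mmu-miR-296-5p: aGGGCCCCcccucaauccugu
mmu-miR-196a-5p: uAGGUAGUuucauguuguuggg
mmu-miR-20b-5p: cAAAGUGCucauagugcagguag
Their positions, in the same order, are chr12:109735669-109735692 (plus), chr12:109715367-109715388 (plus), chr12:109743340-109743359 (plus), chr12:109715587-109715608 (plus), chr12:109712558-109712578 (plus), chr2:174267093-174267113 (minus), chr11:96265187-96265208 (plus) and chrX:52742159-52742181 (minus). All 9 loci matched a RefSeq entry, as did 68 of the 86 tested, and the 16 mature sequences of the 9 loci carry 16 distinct seeds. The seed of miR-20b-5p is shared with 6 other mouse mature miRNAs of the table, among them miR-17-5p and miR-93-5p.

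The long noncoding hosts of the chromosome 12 loci overlapped between the groups. *Meg3* was at 0.094 (P 0.718), *Rian* at 0.30 (P 0.242) and *Mirg* at 0.31 (P 0.283), with 229, 115 and 132 CPM of *Mirg* in Zzz3 auxin and 187, 256 and 146 CPM in Yeats2 auxin. *Meg3* turned direction without Zzz3 auxin replicate 2. From *Meg3* to *Mirg*, a region chosen after values were seen, 36 of 43 genes tested were higher in Yeats2 auxin, against 48% of all genes. Their median was 0.36, or 0.68 without Zzz3 auxin replicate 1 and 0.14 without replicate 2. The region holds chromosome 12 loci given above, and genes that share a host transcript are not independent, so this count is a description.

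**Figure D4:**
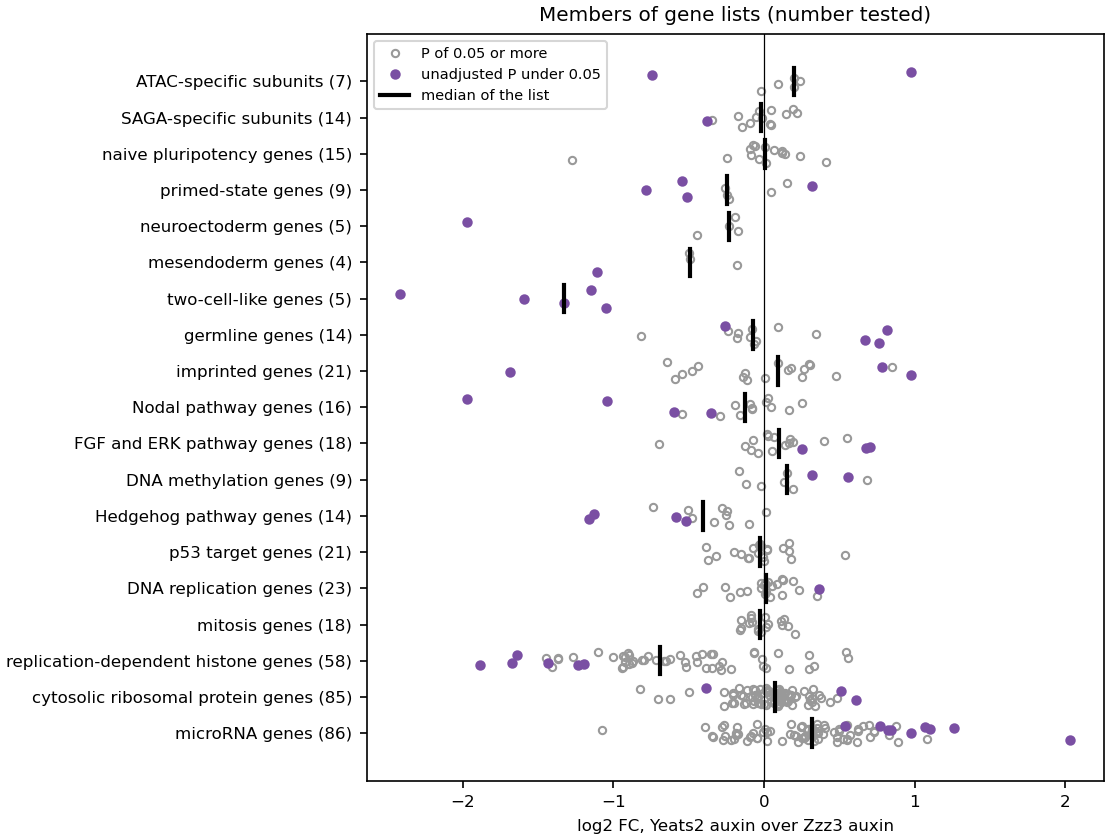
Log2 FC of Yeats2 auxin over Zzz3 auxin (horizontal axis) for members of 19 gene lists, with the number tested in parentheses, filled points for an unadjusted P under 0.05 and a bar for the median of the list. The bar is near 0 for mitosis and DNA replication genes, left of -1 for 2-cell-like genes and at 0.32 for microRNA genes.

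In some abundant gene families the median depended on 1 library. Of 58 replication-dependent histone genes, whose mRNAs lack a poly(A) tail, 50 were lower in Yeats2 auxin and 6 of these at P under 0.05 against 3.53% of all genes, of which 0 kept this P without Zzz3 auxin replicate 3 and 0 without Yeats2 auxin replicate 3. The median was -0.69. *Hist1h2bg* had 8.77, 6.40 and 49.0 CPM in Zzz3 auxin, 5.74, 9.29 and 5.19 CPM in Yeats2 auxin and 5.41 and 11.3 CPM in the controls (log2 FC -1.64, P 0.0478, and -0.17 without Zzz3 auxin replicate 3). *Hist1h2ai* had 5.46, 2.87 and 17.9 CPM in Zzz3 auxin, 1.28, 4.22 and 1.39 CPM in Yeats2 auxin and 0.786 and 1.86 CPM in the controls (log2 FC -1.88, P 0.0267, and -0.85 without Zzz3 auxin replicate 3). Zzz3 auxin replicate 3 alone was high, with a median deviation of 1.36 over the list against -0.51 to 0.27 in the others, and without it the median was 0.033. That library also had the smallest depth, and its genes of high GC content were high, as given below.

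The 85 cytosolic ribosomal protein genes had a median of 0.076, with 55 higher and 30 lower, and 2 higher and 1 lower at P under 0.05, against 2.28% and 3.53% of all genes. Those higher were *Rps27a* (0.51) and *Rpl11* (0.61). The median turned to -0.088 without Zzz3 auxin replicate 1 and to -0.026 without Yeats2 auxin replicate 2. Of 122 snoRNA genes, which guide modification of ribosomal RNA, 89 were higher, against 48% of all genes. At P under 0.05 were 6 higher and 3 lower, together 7.38% beside 5.81% of all genes. Of the 9, 1 to 7 kept this P when 1 library was left out. Libraries did not overlap for 9.84% of the list, beside 11.1% of all genes. The median was 0.20, or 0.047 without Zzz3 auxin replicate 1, 0.30 without replicate 2 and 0.077 with the GC and length correction. *Snord4a* had 1.58, 2.21 and 1.42 CPM in Zzz3 auxin, 2.79, 2.83 and 3.05 CPM in Yeats2 auxin and 2.90 and 2.91 CPM in the controls (log2 FC 0.71, P 0.0129). *Snora73b* had 50.3, 167 and 123 CPM in Zzz3 auxin, 208, 252 and 169 CPM in Yeats2 auxin and 221 and 268 CPM in the controls (log2 FC 0.89, P 0.0404, and 0.53 without Zzz3 auxin replicate 1). Of 4 Pol III and other small structural RNAs tested all 4 were lower, and *Rny3*, a Y RNA, had 8.77, 6.95 and 6.77 CPM in Zzz3 auxin, 4.23, 6.72 and 5.11 CPM in Yeats2 auxin and 3.59 and 3.95 CPM in the controls (log2 FC -0.49, P 0.0454). Mitochondrially encoded mRNAs were tested for 7 of 13 genes, and *mt-Nd6* alone was at P under 0.05, with 56.2, 88.1 and 101.9 CPM in Zzz3 auxin, 125, 154 and 94.1 CPM in Yeats2 auxin and 155 and 95.3 CPM in the controls (log2 FC 0.60, P 0.0260, and 0.39 without Zzz3 auxin replicate 1). The other 6 were lower, and the list was low in Yeats2 auxin replicate 2, without which its median of -0.16 was 0.15.

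**Figure D5:**
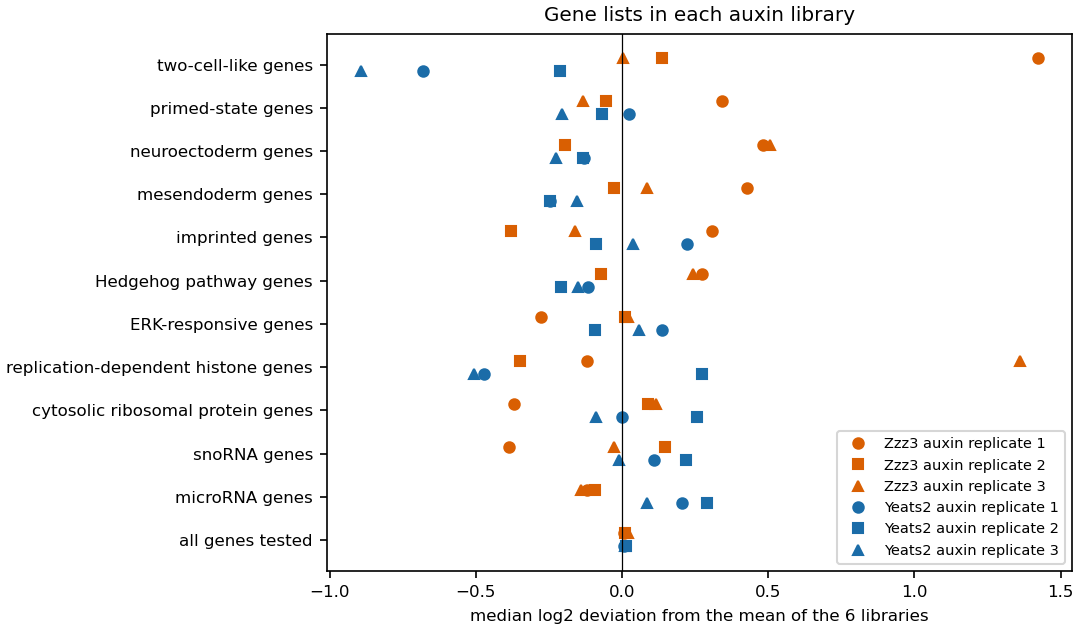
Median log2 deviation of each auxin library from the mean of the 6 libraries (horizontal axis) for 12 gene lists, with orange for Zzz3 auxin, blue for Yeats2 auxin and a marker for each replicate. Zzz3 auxin replicate 1 is far right for 2-cell-like genes at 1.42, replicate 3 for histone genes at 1.36, and the colours do not overlap for microRNA genes.

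Of 18 hypoxia-responsive genes tested, *Bnip3*, a mitophagy receptor, and *P4ha1*, a prolyl hydroxylase of collagen, were lower and *Egln1*, an oxygen sensor, higher in Yeats2 auxin at P under 0.05. These 3 are 16.7% of the list, beside 5.81% of all genes, and 1 to 3 of them kept this P when 1 library was left out. *Bnip3* had 5.61, 4.08 and 5.49 CPM in Zzz3 auxin, 3.45, 3.45 and 2.69 CPM in Yeats2 auxin and 11.5 and 7.18 CPM in the controls (log2 FC -0.66, SE 0.21, P 0.0115). *P4ha1* had 39.3, 31.4 and 34.5 CPM in Zzz3 auxin, 25.7, 27.97 and 25.9 CPM in Yeats2 auxin and 39.0 and 39.6 CPM in the controls (log2 FC -0.40, SE 0.13, P 0.00972). *Egln1* had 14.3, 17.5 and 14.8 CPM in Zzz3 auxin, 18.5, 20.3 and 20.4 CPM in Yeats2 auxin and 22.3 and 20.1 CPM in the controls (log2 FC 0.34, SE 0.14, P 0.0320). In *Bnip3* all auxin libraries were below both controls. Of 6 aryl hydrocarbon receptor targets tested, 2 were lower at P under 0.05, or 33.3% beside 5.81% of all genes, and 0 to 1 of them kept this P when 1 library was left out. *Cyp1a1*, a monooxygenase, had 183, 211 and 232 CPM in Zzz3 auxin, 170.1, 173 and 173 CPM in Yeats2 auxin and 152 and 169.7 CPM in the controls (log2 FC -0.28, P 0.0312). *Ahrr*, a repressor of the receptor, had 20.8, 14.9 and 11.6 CPM in Zzz3 auxin, 11.9, 10.6 and 10.5 CPM in Yeats2 auxin and 11.6 and 11.0 CPM in the controls (log2 FC -0.52, P 0.0306, and -0.27 without Zzz3 auxin replicate 1). The list median of -0.24 was -0.073 without Zzz3 auxin replicate 1. Of 19 cholesterol synthesis genes tested, 2 were lower at P under 0.05, or 10.5% beside 3.53% of all genes. Of the 2, 0 to 2 kept this P when 1 library was left out. Among them was *Fdft1*, of squalene synthesis (-0.33, P 0.0331, and -0.21 without Zzz3 auxin replicate 1). All 19 intervals lay inside -1 to 1.

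Among 1313 long noncoding RNAs 34 were higher and 25 lower in Yeats2 auxin at P under 0.05, together 4.49% beside 5.81% of all genes, with a median of 0.015. *Crnde* had 1.96, 1.43 and 1.69 CPM in Zzz3 auxin, 0.582, 0.551 and 0.950 CPM in Yeats2 auxin and 0.737 and 0.772 CPM in the controls (log2 FC -1.29, SE 0.31, P 0.00213), with Yeats2 auxin at the level of the controls. *Halr1*, next to the *Hoxa* cluster, had 2.65, 6.29 and 3.59 CPM in Zzz3 auxin, 8.02, 8.22 and 6.65 CPM in Yeats2 auxin and 7.77 and 5.45 CPM in the controls (log2 FC 0.86, SE 0.29, P 0.0142, and 1.31 without Zzz3 auxin replicate 2). *Miat*, a nuclear RNA, had 0.923, 0.993 and 0.677 CPM in Zzz3 auxin, 1.59, 1.73 and 1.58 CPM in Yeats2 auxin and 1.62 and 1.95 CPM in the controls (log2 FC 0.89, SE 0.27, P 0.00782). *Kis2*, the host transcript of the Mir106a cluster that holds *Mir20b*, had 9.61, 15.4 and 7.25 CPM in Zzz3 auxin, 17.9, 19.6 and 15.8 CPM in Yeats2 auxin and 21.7 and 18.4 CPM in the controls (log2 FC 0.71, P 0.0158). *Neat1*, the scaffold of paraspeckles, had 158, 174 and 115 CPM in Zzz3 auxin, 206, 196 and 169 CPM in Yeats2 auxin and 261 and 205 CPM in the controls (log2 FC 0.35, P 0.0453, and 0.20 without Zzz3 auxin replicate 3). In *Halr1*, *Miat*, *Kis2* and *Neat1* the mean of Zzz3 auxin was below both controls.

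Difference by chromosome was small. The median log2 FC of 20 chromosomes lay between -0.043 and 0.021, and the median deviation of a library on a chromosome was -0.036 to 0.087. Base composition gave a larger difference. The median log2 FC was 0.039 in the quintile of genes with the lowest GC content and -0.13 in the highest, above 55.0% GC. Of the 3338 genes of the highest quintile, 217 were lower and 70 higher at P under 0.05, together 8.60% beside 5.81% of all genes. Over all genes tested, 590 were lower and 381 higher at that P. Zzz3 auxin replicate 3 had a median deviation of 0.27 in that quintile and of -0.073 in the lowest, and with the GC and length correction the list median was -0.53 for histone genes.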

How the data were processed

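Raw counts per gene, 1 file per library, were deposited by the authors, who used cutadapt for trimming, discarded rRNA reads, mapped what remained with STAR 2.5.3a on mm10 and counted unique reads with HTSeq 0.6.1p1 in union mode. The labels name poly(A) RNA, the protocol ribodepleted total RNA. Tallies of unassigned reads, 63.5% to 69.4% of each file's total, were left out. GENCODE M21 (GRCm38, the assembly of mm10) matched 55141 of 55401 genes.

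Genes were filtered with filterByExpr in edgeR 4.0.16 and fitted with its robust quasi-likelihood test on the 6 auxin libraries (two-sided, Benjamini-Hochberg adjusted); the SE is the log2 FC divided by the square root of F, and log2 CPM had a prior count of 2. Controls were only scaled along. Alternatives were DESeq2 1.42.0, other scalings, filters and sample sets, the replicate number as a block, a GC and length correction (lowess span 0.3) and, chosen after seeing the data, limma-voom (limma 3.58.1) with sample weights. The pipeline was tested on simulated data. Named genes were both targets, the 12 higher and 12 lower genes with the smallest P (mean of at least 2 CPM, no overlap, a gene symbol, no pseudogene), genes called by DESeq2 and list members at P under 0.05; not all are named, and members named at a larger P serve to describe their list. The comparison, the gene lists and the rules were chosen with earlier results of these data known, and 7 lists after values were seen. Nascent RNA was not analysed here, and some genes are not reported here.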

Additional observations from a re-analysis of the deposited data

Results flagged for a closer look

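In 6 of the genes named, the libraries of the auxin groups lay on opposite sides of both controls, which means that every Yeats2 auxin library was above and every Zzz3 auxin library below them or the reverse; this contrast with the controls was not tested. *Zzz3* (log2 FC of Yeats2 auxin over Zzz3 auxin 0.97), *Dmc1* (0.85) and *Slc1a3* (0.66) were above the controls in Yeats2 auxin and below them in Zzz3 auxin. *Cap2* (-0.86), *Plce1* (-0.55) and *Adh1* (-2.69) showed the reverse. Against the mean of the controls, *Dmc1* was at a log2 ratio of 0.48 (Yeats2 auxin) and -0.36 (Zzz3 auxin), and *Cap2* at -0.43 and 0.43. Over all 16706 genes tested, 23 had the first pattern (0.138%) and 22 the second (0.132%). Whether these shares exceed what chance would give was not tested. These genes were chosen with their values known, and the controls number 2. *Dmc1*, *Slc1a3*, *Cap2* and *Plce1* had been chosen for no overlap of the auxin groups. For *Zzz3* the margin was small, with 185.956 CPM in Yeats2 auxin replicate 2 against 185.76 CPM in control replicate 1. The margin of *Cap2* was small as well, with 7.36 CPM in Zzz3 auxin replicate 2 against 7.32 CPM in control replicate 1.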

How the results depend on the processing

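The count of called genes was 0 with median-of-ratios size factors, a mean of at least 1 CPM, all 8 libraries in the fit, protein-coding genes alone and the GC and length correction. It was 3 with DESeq2, 1 with limma-voom and sample weights, and 128 without a filter on low counts, of which 124 were also tested with the filter and 83 were highest in Zzz3 auxin replicate 1, and which held 13 of the 24 genes chosen by P; it was 0 to 1 when each library was left out, the 1 being *Zzz3* without Zzz3 auxin replicate 3. Genes at an unadjusted P under 0.05 numbered 2181 of 32168 tested without the filter, or 6.78% beside 5.81% with it. Without Zzz3 auxin replicates 1, 2 and 3 they numbered 691 (4.03% of genes tested), 2390 (13.9%) and 1119 (6.56%). Without Yeats2 auxin replicates 1, 2 and 3 they numbered 490 (2.86%), 576 (3.36%) and 549 (3.21%). *Zzz3* passed adjustment with DESeq2 (log2 FC 0.98), without a filter (0.99) and with limma-voom (1.05), and its log2 FC was 0.84 to 1.11 when each library was left out; *Yeats2* passed without a filter (-0.72) and ranged from -1.05 to -0.47 without each library. The chromosome median farthest from 0 was between -0.067 (without Zzz3 auxin replicate 2) and -0.024 when each library was left out. No label says whether same-numbered libraries were paired. Their deviations correlated at 0.026, 0.048 and -0.077, which cannot settle this. With the replicate block 0 genes were called in edgeR (smallest adjusted P 0.133) and 1125, or 6.73%, were at P under 0.05. The log2 FC was then 0.99 for *Zzz3* and -0.82 for *Yeats2*. Of 137 genes followed through the settings that tested them, none at an unadjusted P under 0.05 turned direction. Those that turned numbered at most 6 in a setting (without Zzz3 auxin replicate 1) and had a log2 FC of at most 0.21 in size. Some genes were not tested in every setting, such as *Pax6* with a mean of at least 1 CPM and *Zscan4a* with protein-coding genes alone. Without at least 1 library the list median turned sign for imprinted, germline, ERK-responsive, histone, ribosomal protein, mitochondrially encoded, heat-shock and trophoblast genes (the last from 0.10 to -0.0049 without Zzz3 auxin replicate 2), and for lists whose median was already near 0. Low counts limit genes under 2 CPM, whose 95% intervals reached a median of 0.85 to each side on the log2 scale, against 0.26 above 100 CPM.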

Other observations

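MHC class II genes, a list chosen after values were seen, were tested for 4 of 7 members. *Ciita*, the transactivator of this gene class, had 1.46, 2.83 and 3.32 CPM in Zzz3 auxin, 3.76, 4.11 and 3.76 CPM in Yeats2 auxin and 2.16 and 1.54 CPM in the controls (log2 FC 0.64, P 0.0493, and 0.35 without Zzz3 auxin replicate 1), and *H2-Eb1* is given above. The invariant chain *Cd74* had 1.42, 1.14 and 0.948 CPM in Zzz3 auxin, 0.892, 0.734 and 1.07 CPM in Yeats2 auxin and 0.393 and 0.363 CPM in the controls (log2 FC -0.40, P 0.207).

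Among genes below the level required for naming, and chosen after their values were seen, *Adh1*, an alcohol dehydrogenase, had 1.81, 0.478 and 0.406 CPM in Zzz3 auxin, 0.0775, 0.220 and 0.119 CPM in Yeats2 auxin and 0.295 and 0.318 CPM in the controls (log2 FC -2.69, P 0.00336, and -1.64 without Zzz3 auxin replicate 1). *Gng13*, a G protein subunit, had 0.115, 0.294 and 0.135 CPM in Zzz3 auxin, 0.892, 0.697 and 0.713 CPM in Yeats2 auxin and 0.246 and 0.4995 CPM in the controls (log2 FC 1.99, P 0.00128). *Mroh7* had 0.115, 0.184 and 0.135 CPM in Zzz3 auxin, 0.426, 0.734 and 0.633 CPM in Yeats2 auxin and 0.737 and 0.363 CPM in the controls (log2 FC 1.99, P 0.00170). In these 3 genes the libraries of both groups did not overlap, which 11.1% of all genes showed, and none passed adjustment after the filter on low counts.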
